A study of Mus musculus with 8 samples.

Results

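The T cell receptor and coreceptor genes are 10 genes, taken by symbol from the 49585 gene rows of each library, and every one stood on 1 row. They are the CD3 chains Cd3d, Cd3e and Cd3g, the receptor constant genes Trac, Trbc1 and Trbc2, the coreceptor genes Cd4, Cd8a and Cd8b1, and Lck. Their levels were compared in whole pituitary of young (2-3 months) and old (18-24 months) WT mice of the strain C57BL/6, in 4 libraries of polyA RNA per age. The mice of both ages carried no other allele and received no treatment by the labels, and by the study's account blood cells were flushed out by perfusion before the glands were taken. Their sex is not given in the sources used here. Libraries are numbered replicate 1 to 4 within each age, and whether a library is 1 mouse is not stated, so p-values measure only the spread between these samples.

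A T cell reads antigen through a receptor of paired alpha and beta chains, which have short cytoplasmic ends and cannot signal alone. The CD3 chains, together with the zeta chain encoded by Cd247, bring the receptor to the surface and carry the signal into the cell. CD4 and CD8 bind the presenting molecules of other cells and bring the kinase Lck to the receptor, where it phosphorylates CD3. In the pituitary, hormone-secreting cells make up most of the gland, and T cells are a minor population. The values are FPKM, which are fragments scaled to exon length and library total, and the authors deposited them without counts. The fragments behind each value were computed back from FPKM, exon length and library total, and CPM stands here for fragments scaled to the library total alone. Where a library holds 0 fragments of a gene, up to 3 are allowed for, which is 0.147 to 0.199 CPM.

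Library totals ran from 15042321 to 20429604 fragments in young and from 16098530 to 19272104 in old, so depth was similar at both ages. The hormone genes of the gland led every library, with Prl (prolactin) at 82120 ± 4883 FPKM in young and 83140 ± 10690 in old (SD, n = 4). The 10 receptor and coreceptor genes lay between 0 and 1.53 FPKM. Together they held 769 fragments over the 8 libraries, with 31 to 97 per library in young and 115 to 140 in old. All 8 libraries thus held fragments of these genes, and each old library held more than each young one. Lck held 278 of the 769 fragments and Cd4 201, and other cell types also express both genes. In a whole gland, more T cells, more of these RNAs per T cell and RNAs from other cell types cannot be told apart.

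The 3 CD3 genes lie side by side on chromosome 9 of GRCm38 (GENCODE M21). Cd3g occupies chr9:44969572-44980431 on the minus strand and Cd3d chr9:44981786-44987339 on the plus strand, so that they start away from each other with 1354 bases between them. Cd3e lies 11400 bases further along, at chr9:44998740-45009627 on the minus strand. Within it, the annotation places the antisense gene Gm48719 and the unclassified transcript Gm48720, which were not analysed here. The 250 bases before each start are shown because the chains are neighbours, set side by side at both ages in the values that follow. They are from RefSeq (GRCm38.p6), 5′ to 3′ on the strand of the gene, with E-box, GATA and TCF letters in capitals.
Cd3g, chr9:44980432-44980681, minus strand: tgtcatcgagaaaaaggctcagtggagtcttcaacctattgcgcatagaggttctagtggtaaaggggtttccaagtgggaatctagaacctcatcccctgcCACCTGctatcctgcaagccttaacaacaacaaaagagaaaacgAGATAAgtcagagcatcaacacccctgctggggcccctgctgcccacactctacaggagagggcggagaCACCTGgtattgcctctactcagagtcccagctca
Cd3d, chr9:44981536-44981785, plus strand: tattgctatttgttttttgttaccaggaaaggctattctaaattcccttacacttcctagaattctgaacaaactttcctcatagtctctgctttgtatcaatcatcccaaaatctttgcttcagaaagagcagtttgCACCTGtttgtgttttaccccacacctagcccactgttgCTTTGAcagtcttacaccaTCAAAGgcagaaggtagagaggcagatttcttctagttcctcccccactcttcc
Cd3e, chr9:45009612-45009861, minus strand: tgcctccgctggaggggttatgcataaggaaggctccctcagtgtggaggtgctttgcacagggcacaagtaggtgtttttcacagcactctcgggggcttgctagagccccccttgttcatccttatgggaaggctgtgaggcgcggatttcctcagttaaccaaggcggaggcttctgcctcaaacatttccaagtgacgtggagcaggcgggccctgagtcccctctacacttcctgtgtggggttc
Both strands were searched for 5 motifs, and no matches overlapped. The E-box was read as CAGCTG, with the spelling CAGGTG counted as well. The GATA motif was read as AGATAA and the motif of TCF factors as CTTTGA. The motif of RUNX factors was read as TGTGGT and the box of the core promoter as TATAAA, named TATA here. The Cd3g window held 2 E-boxes, 148 and 35 bases before the start, and 1 GATA match at 104. The Cd3d window held 1 E-box at 112 and 2 TCF matches at 73 and 54, and the Cd3e window held none of the 5. Among the 32851 promoter windows of the RefSeq table, 27.7% held the E-box, 9.99% GATA, 13.8% TCF, 14% RUNX and 12.4% TATA. These matches describe letters in a window and say nothing of binding. Promoters of 5 of the 10 genes were in the table.

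The CD3 chains, the signalling part of the receptor, set the ages apart, with 13 fragments in all young libraries and 77 in all old ones. Cd3g, the gamma chain of CD3, had 0, 0, 3 and 0 fragments in the young libraries, in order of replicate number, and 8, 7, 9 and 9 in the old. Every old library lay above every young one, and the young fragments came from replicate 3 alone. Its level was 0.0112 ± 0.0225 FPKM in young and 0.142 ± 0.0185 in old, and the ratio of summed CPM was 10.9 (95% exact counting interval 3.43 to 55.8).

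Cd3e, the epsilon chain, had 0, 1, 2 and 3 fragments in young and 10, 9, 6 and 9 in old. Again the ages did not overlap, with 0.0201 ± 0.0167 FPKM in young and 0.119 ± 0.0315 in old and a ratio of 5.64 (2.34 to 16.4). Cd3d, the delta chain, had 0, 1, 1 and 2 fragments in young and 0, 1, 5 and 4 in old. Its ages overlapped, since old replicates 1 (0 FPKM) and 2 (0.0298 FPKM) lay within the young range of 0 to 0.0603, and its counting interval of 0.717 to 10.9 around a ratio of 2.49 includes no difference. The 3 chains summed to 0 to 6 fragments per young library and 17 to 22 per old library, a ratio of 5.89 (3.25 to 11.6). These intervals cover counting error only and leave out the spread between libraries.

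**Figure D1:**
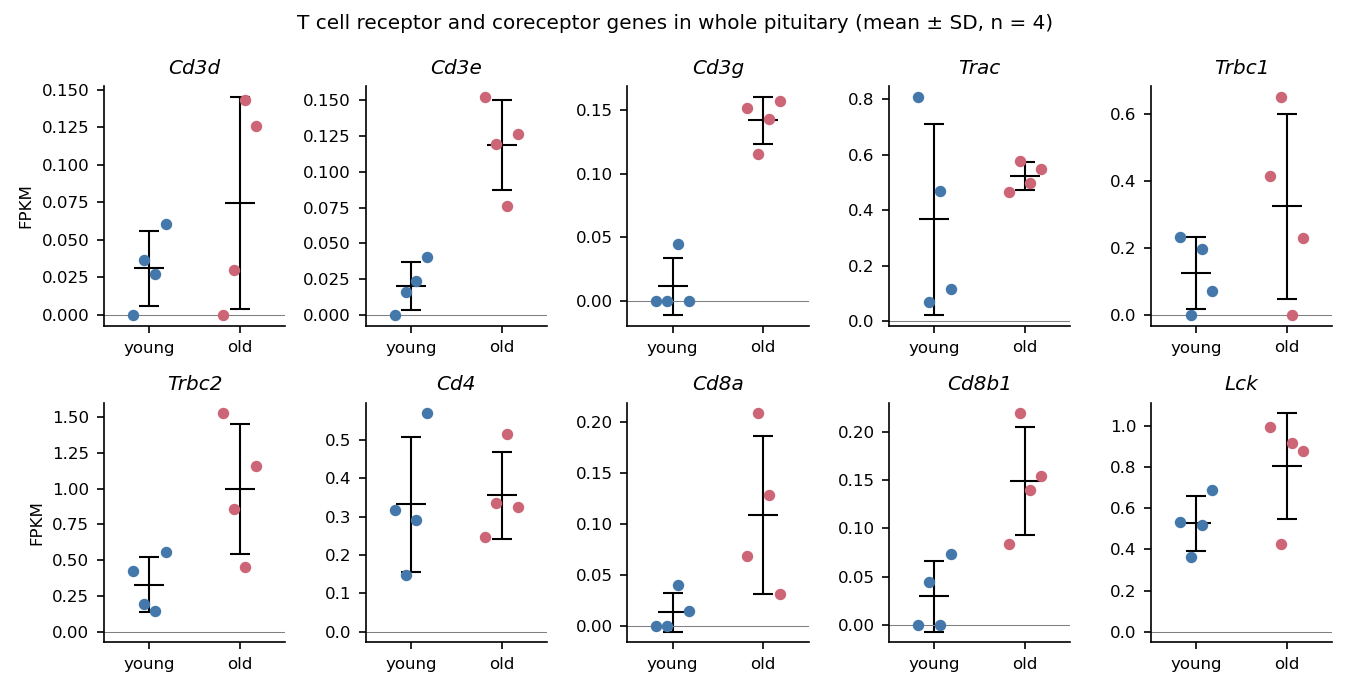
FPKM of each of the 10 receptor and coreceptor genes in the 4 young (blue) and 4 old (red) libraries, 1 point per library, with the mean and SD as bars and a separate linear y axis for each gene. The old points lie above all young points for Cd3e, Cd3g and Cd8b1, and the ages overlap for the other 7 genes.

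The constant genes encode the part of the alpha and beta chains that is shared by all receptors of a kind. Trac, the constant gene of the alpha chain (chr14:54220521-54224206, plus strand), had 13, 1, 9 and 2 fragments in young and 7, 10, 9 and 9 in old. The old libraries were close to each other, at 0.523 ± 0.0508 FPKM, while the young ones spread from 0.0711 to 0.809, and young replicate 1 was the highest of all 8. On the log2(FPKM + 0.1) scale the difference between old and young was 0.74 (95% interval -0.45 to 1.93).

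The beta chain has a pair of constant genes, Trbc1 (chr6:41538218-41539881) and Trbc2 (chr6:41546730-41548352), both on the plus strand and 6848 bases apart. Their coding sequences of 518 bases each were identical at 495 positions (95.56%), with 23 mismatches and an identical run of 259 bases. How fragments that fit both genes were assigned is not given here, so the split between them is uncertain. The 150 coding bases that hold 21 of the mismatches, in capitals, are shown because, within the coding sequence, the genes differ mostly there; the untranslated bases were not aligned. They were joined across exons from GENCODE M21 on GRCm38, and the positions are those of their first and last bases.
Trbc1, chr6:41538580-41539656: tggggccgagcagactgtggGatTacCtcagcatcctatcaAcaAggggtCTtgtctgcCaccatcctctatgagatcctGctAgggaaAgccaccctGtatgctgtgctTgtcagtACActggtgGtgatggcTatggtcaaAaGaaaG
Trbc2, chr6:41547092-41548172: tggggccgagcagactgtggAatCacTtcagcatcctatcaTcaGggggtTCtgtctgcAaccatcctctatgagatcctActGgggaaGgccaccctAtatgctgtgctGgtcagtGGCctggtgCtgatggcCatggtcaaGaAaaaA

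Trbc2 had 5, 2, 2 and 7 fragments in young and 17, 11, 6 and 14 in old. Only old replicate 3 fell within the young range, and the mean was 0.327 ± 0.194 FPKM in young and 0.998 ± 0.456 in old, a ratio of summed CPM of 2.98 (1.67 to 5.63). Trbc1 had 3, 0, 3 and 1 fragments in young and 5, 9, 0 and 3 in old, and its ages overlapped. Taken as a sum, the beta constant genes had 2 to 8 fragments in young and 6 to 22 in old, a ratio of 2.81 (1.72 to 4.74). Fragments that fit both genes would change this sum if they were left out or counted on each gene. Old replicate 3, the lowest old library, lay within the young range here too, although its CD3 fragments (20) were among the higher ones.

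CD8 is a pair of an alpha and a beta chain on cytotoxic T cells, encoded by Cd8a (chr6:71373427-71379173) and Cd8b1 (chr6:71322788-71337494), 35932 bases apart on the plus strand. Cd8b1 had 0, 1, 0 and 2 fragments in young and 2, 6, 4 and 4 in old. In FPKM the old libraries lay above the young ones, but the lowest old library (0.0838 FPKM) and the highest young one (0.0737 FPKM) held 2 fragments each. Cd8a had 0, 0, 3 and 1 fragments in young and 4, 14, 9 and 2 in old, and the ages overlapped through old replicate 4. Summed, the CD8 chains had 0 to 3 fragments in young and 6 to 20 in old, a ratio of 6.39 (2.86 to 16.8).

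CD4, the coreceptor of helper T cells, gave no such gap. Cd4 (chr6:124864692-124888221, minus strand) had 22, 9, 24 and 42 fragments in young and 16, 25, 40 and 23 in old. The highest library was young and the ages overlapped throughout, at 0.332 ± 0.175 FPKM in young and 0.356 ± 0.113 in old. The ratio was 1.07 (0.801 to 1.42) and the log2 difference 0.14 (95% interval -0.58 to 0.85). Its sign turned when young replicate 2 (-0.10) or old replicate 3 (-0.02) was left out. Macrophages and monocytes can also express Cd4, and the part of these cells in its values was not tested.

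Lck, the kinase that starts the signal (chr4:129548344-129573641, minus strand), had the most fragments of the 10 genes, 27, 16, 31 and 37 in young and 47, 23, 52 and 45 in old. In Lck, 3 old libraries lay above all young ones, and old replicate 2 lay within the young range. The level was 0.527 ± 0.134 FPKM in young and 0.805 ± 0.258 in old, with a log2 difference of 0.50 (95% interval -0.13 to 1.13). The annotation places the microRNA gene Mir8119 inside Lck, with 4 fragments in young and 1 in old.

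**Figure D2:**
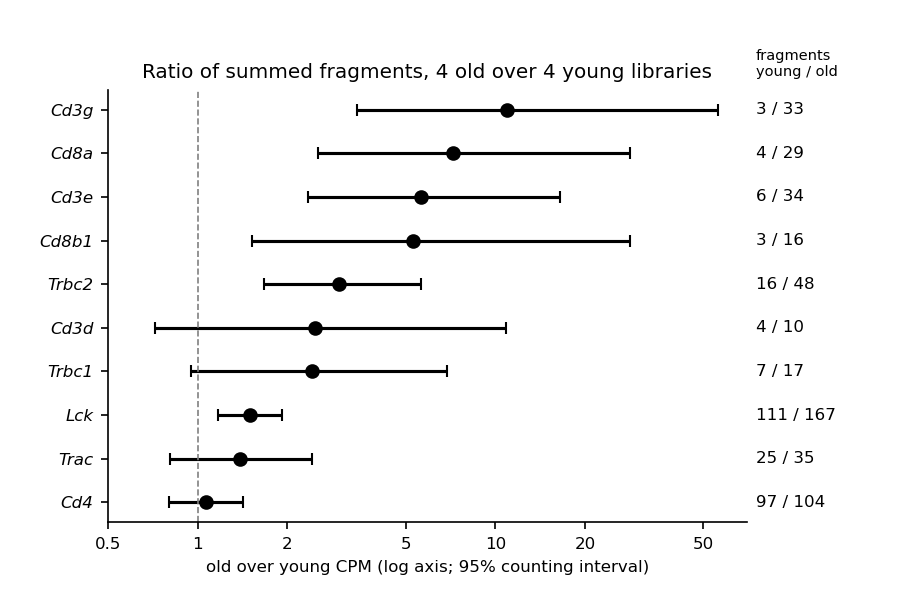
Ratio of summed CPM, 4 old over 4 young libraries, for each gene on a log axis with its 95% exact counting interval, and the fragments of each age at the right. Cd3g is highest at 10.9 and Cd4 lowest at 1.07, and the intervals of Cd3d, Trbc1, Trac and Cd4 include 1.

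Levels per exon length put the genes in similar order at both ages, with Lck, Trac, Cd4 and Trbc2 above Trbc1, and Trbc1 above the CD3 and CD8 chains. In old, mean FPKM ran from 0.998 for Trbc2 through 0.805 for Lck and 0.523 for Trac down to 0.109 for Cd8a and 0.0747 for Cd3d. In young, it ran from 0.527 for Lck and 0.367 for Trac down to 0.0139 for Cd8a and 0.0112 for Cd3g. At each age every pair of neighbours in this order overlapped between libraries. The exon lengths behind the levels include retained introns, with 4080 bases for Cd3e and 3269 for Cd3g against 935 for Trac, so levels of the CD3 chains per length depend on the annotation.

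The difference between the ages was tested with limma over the 23498 genes whose mean reached 0.1 FPKM. Of these, 436 were higher in old (1.86%) and 111 lower (0.472%) at an adjusted p under 0.05, a split that became 211 and 220 when libraries were scaled by RLE (median-of-ratios) size factors. That scaling took the median of all genes from 0.15 to 0.0066 on the log2 scale. Trac, Trbc1, Trbc2, Cd4 and Lck passed the filter, the other 5 genes were too low for it, and none of the 10 was called higher or lower. Trbc2 came nearest, with a log2 difference of 1.37 (SE 0.43, limma adjusted p = 0.13), and was the only member with an unadjusted p under 0.05. The adjusted p was 0.32 for Lck, 0.43 for Trac, 0.56 for Trbc1 and 0.83 for Cd4. The median log2 difference of these 5 was 0.72, beside 0.15 for all genes tested, and 0.62 beside 0.0066 with RLE scaling. voom on fragments, with the same filter, also called 0 members, with 1 at an unadjusted p under 0.05.

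With every gene above 0 tested, 32579 in all, 263 were higher in old (0.807%), and of the 10 members Cd3g passed. Its log2 difference was 1.14 (SE 0.15, limma adjusted p = 0.025), a size that depends on the pseudocount of 0.1 since young held 3 fragments in all. Cd3e just missed, at 0.86 (SE 0.15, limma adjusted p = 0.05002). Then came Cd8b1 (0.96, limma adjusted p = 0.11), Trbc2 (1.37, limma adjusted p = 0.17) and Cd8a (0.82, limma adjusted p = 0.19), while Cd3d stood at 0.34 (limma adjusted p = 0.61). Leaving out 1 library at a time, Cd3g kept its call in 2 of 8 fits, without young replicate 2 (limma adjusted p = 0.049) and without young replicate 3 (limma adjusted p = 0.019), and reached 0.070 in the others. voom over the 19987 genes with at least 10 fragments, tried after the data had been examined, called Cd3g (voom adjusted p = 0.010) and Cd3e (voom adjusted p = 0.031). It called 5.55% of all its genes higher. Cd3g (3 fragments in young and 33 in old) and Cd3e (6 and 34) passed this filter only through the old libraries.

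The 10 genes all had a higher mean FPKM in old. For 3 of them, Cd3e, Cd3g and Cd8b1, every old library lay above every young one, where 10.1% of all genes above 0 did so. None of the 10 lay below every young library, where 1.72% of genes did.

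The V segments encode the variable end of the receptor chains and are joined to the constant genes in the mature transcript. They are counted on other rows, and whether their fragments came from joined transcripts was not tested. The 174 rows of Trav, Trbv, Trdv and Tcrg-V segments together held 11, 12, 5 and 11 fragments in young and 26, 35, 11 and 18 in old. Old replicate 3, low for the beta constant genes, was also the lowest old library here and equalled or lay below 3 young libraries in fragments. The mean was 0.571 ± 0.234 CPM in young and 1.28 ± 0.593 in old, and the difference of 0.706 had an exact permutation p = 0.11 (two-sided, 4 against 4). The beta segments carried it, with 0.372 ± 0.214 against 1.03 ± 0.563 CPM, while the alpha segments had 13 fragments in young and 17 in old.

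Of the 35 Trbv rows, 5 held fragments in young and 11 in old. Trbv13-2 (chr6:41121396-41121832) had 6, 2, 1 and 3 fragments in young and 7, 13, 3 and 10 in old. Its neighbour Trbv12-2 (chr6:41118851-41119364), 2031 bases before it, had 2, 5, 1 and 2 in young and 7, 11, 2 and 3 in old. Both were present in all 8 libraries, and together they held 22 of 25 Trbv fragments in young (88%, exact 95% interval 68.8 to 97.5) and 56 of 72 in old (77.8%, 66.4 to 86.7). No other V segment had more than 5 fragments, the next being Trav18 with 1 in young and 4 in old and Trbv17 with 0 and 5. Without the pair of Trbv segments the difference was 0.239 CPM (exact permutation p = 0.17). The J and D segments, which join the V segments to the constant genes, had 18 fragments in young and 38 in old.

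**Figure D3:**
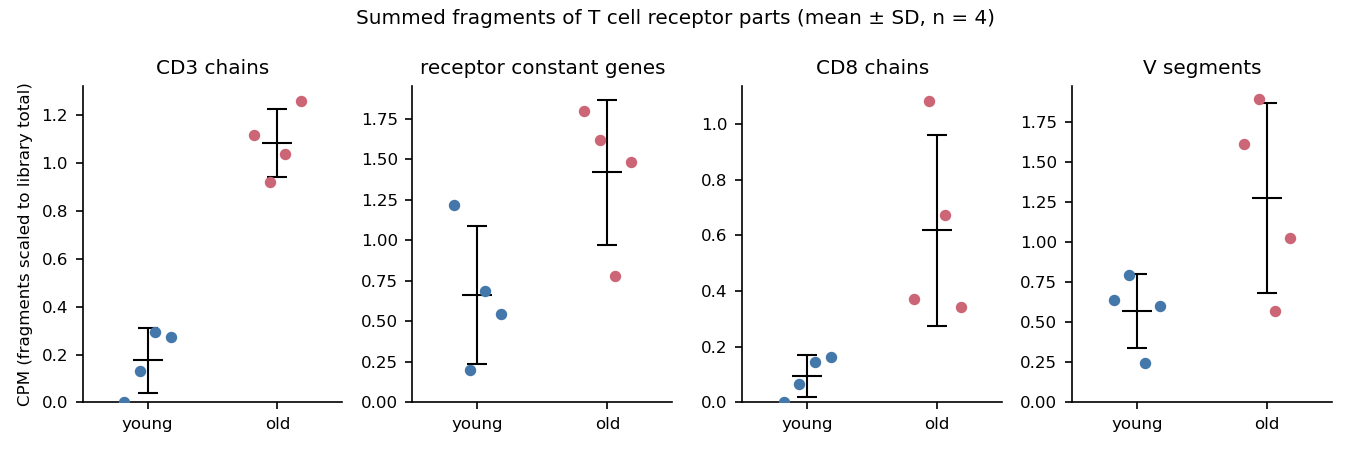
CPM of the CD3 chains, the receptor constant genes, the CD8 chains and the V segments in each young (blue) and old (red) library, with the mean and SD as bars and a linear axis from 0 in each panel. The CD3 and CD8 sums separate the ages, at 0 to 6 against 17 to 22 and 0 to 3 against 6 to 20 fragments, while the constant genes and V segments overlap through 1 old library.

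The gamma delta receptor, which some T cells carry in place of the alpha beta receptor, left fewer fragments. Tcrg-C2 had 0, 0, 1 and 0 in young and 4, 3, 3 and 1 in old, and the old libraries lay above the young ones in CPM. Trdc, the only constant gene of the delta chain, had 1 fragment in young and 2 in old, Tcrg-C1 2 and 4, and Tcrg-C4 0 and 5. Tcrg-C3 and the Tcrg-V segments were at 0 in all libraries. None of the 5 constant genes passed the filter.

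The proteins that act after the receptor were taken as a list of 30 genes, of which 21 passed the filter. Of these, 3 were higher in old, beside 1.86% of all genes, and none was lower. Their median log2 difference was 0.35 (0.21 with RLE scaling). Ptprc (CD45), the phosphatase of all white blood cells that activates Lck, had 60, 47, 103 and 102 fragments in young and 199, 196, 173 and 170 in old, with no overlap. It rose by 1.01 on the log2 scale (SE 0.16, limma adjusted p = 0.028).

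Fyb, an adaptor that links the receptor to adhesion, was at 0.617, 0.628, 0.925 and 0.812 FPKM in young and 1.74, 1.29, 1.46 and 1.56 in old and rose by 0.94 (SE 0.15, limma adjusted p = 0.029). As for Ptprc, the lowest old library lay above the highest young one. Both genes also work in other white blood cells. When 1 library was left out, Ptprc kept its call in 2 of 8 fits (without young replicate 2 or young replicate 4), and Fyb in 0 of 8, with limma adjusted p from 0.052 to 0.080.

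The genes of this list closest to the receptor itself were not called. Cd247, the zeta chain, was at 1.39 to 1.80 FPKM in young and 1.98 to 2.24 in old, with 633 and 805 fragments. The ages did not overlap, but the log2 difference was 0.32 (SE 0.11, limma adjusted p = 0.16), and Cd247 held many times the fragments of the CD3 chains it pairs with. Zap70, the kinase that binds the phosphorylated chains, had 18 fragments in young and 19 in old, below the filter. Lat, the scaffold that Zap70 phosphorylates, had 17 and 46 (log2 difference 0.84, limma adjusted p = 0.10), and Lcp2 (SLP-76) 60 and 136 (0.88, limma adjusted p = 0.061). Vav1, an exchange factor recruited by Lcp2, stood at 0.71 (limma adjusted p = 0.056), and Ptpn22, a phosphatase that switches Lck off, at 0.88 (limma adjusted p = 0.057). Lat (0.0866 ± 0.0483 FPKM in young and 0.233 ± 0.0802 in old) and Ptpn22 (0.0645 ± 0.0386 and 0.195 ± 0.0137) passed the filter only through the old libraries. With no filter the limma adjusted p was 0.14 for Lat and 0.077 for Ptpn22.

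**Figure D4:**
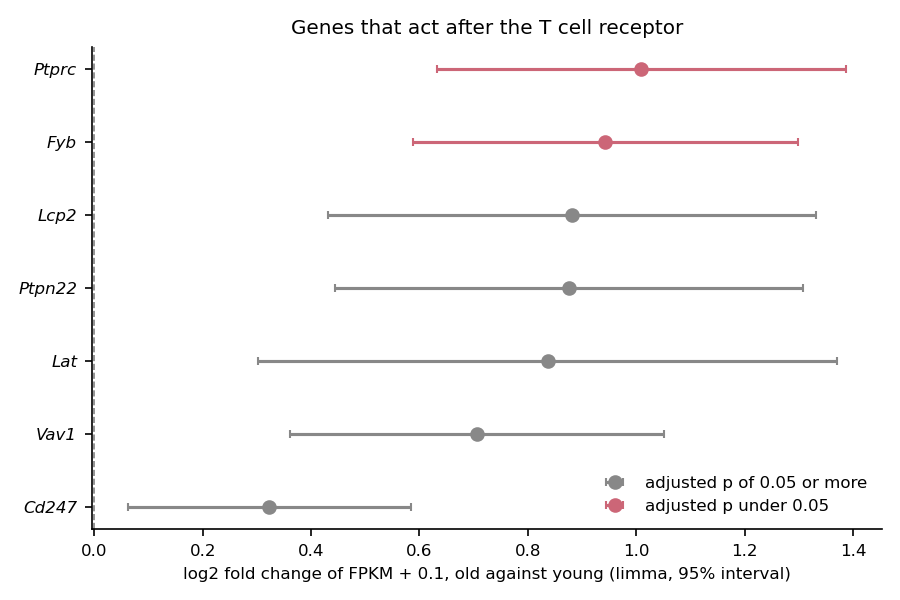
Difference between old and young in log2(FPKM + 0.1), with its 95% interval, for 7 genes acting after the T cell receptor that are described in the text, with those at an adjusted p under 0.05 in red. Ptprc (1.01) and Fyb (0.94) are the called genes shown, while Cd247, the zeta chain of the receptor, stands at 0.32. Lat and Ptpn22 passed the filter only through the old libraries.

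Of 20 costimulatory and inhibitory surface molecules of T cells, 10 passed the filter and 1 was called higher. Pdcd1 (PD-1), an inhibitory receptor of activated T cells, had 2, 0, 1 and 2 fragments in young and 6, 7, 6 and 6 in old. The ages did not overlap, and it rose by 1.08 on the log2 scale (SE 0.16, limma adjusted p = 0.025), a call kept in 3 of the 5 fits without 1 library in which it passed the filter (without young replicate 1, 2 or 4). It passed the filter only through the old libraries (0.0356 ± 0.0284 FPKM in young and 0.182 ± 0.0160 in old), and with no filter its limma adjusted p was 0.034. Cd28, the main costimulatory receptor, had 2 fragments in young and 16 in old, below the filter, and Cd2 had 13 and 25 (0.52, limma adjusted p = 0.36). The median of the list was 0.51 beside 0.15 for all genes, and Cd40lg was at 0 in every library. The summed level of the list, 7.54 to 20.3 FPKM in young and 16.1 to 34.9 in old, came largely from Thy1 (12.6 ± 4.93 and 18.0 ± 8.82 FPKM), which neurons and stromal cells also express.

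Among 14 transcription factors of T cell lineages, 9 passed the filter, 1 was called higher (0 with RLE scaling) and 0 lower. The median log2 difference of the 9 was 0.34, beside 0.15 for all genes. Eomes, a factor of cytotoxic T cells and natural killer cells, had 0 fragments in every young library and 4, 4, 2 and 2 in old, below the filter.

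Among 18 cytokines, cytokine receptors and homing molecules, 9 passed the filter and Cxcr3 was called higher, while Il17a was at 0 in every library. Cxcr3, the chemokine receptor of activated T cells and natural killer cells, had 0, 0, 0 and 2 fragments in young and 6, 9, 5 and 4 in old. The ages did not overlap, and it rose by 1.35 (SE 0.23, limma adjusted p = 0.031), a call kept in 2 of the 5 fits without 1 library in which it passed the filter (without young replicate 4 or old replicate 4). Like Pdcd1, it passed the filter only through the old libraries (0.0158 ± 0.0316 FPKM in young and 0.195 ± 0.0679 in old), and with no filter its limma adjusted p was 0.042. Ccl5, a chemokine made by both cell types, had 5, 3, 8 and 5 fragments in young and 25, 29, 11 and 49 in old. Every old library was higher, and the log2 difference was 2.00 (SE 0.42, limma adjusted p = 0.055).

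Marker genes of other cell types that the gland could hold were examined beside the receptor genes, and their part in these values was not tested. Of 10 natural killer cell genes, 4 passed the filter and Klrd1 was called higher (0.84, limma adjusted p = 0.038), with 1, 1, 2 and 1 fragments in young and 5, 4, 3 and 4 in old. Klrd1 passed the filter only through the old libraries (0.0541 ± 0.0154 FPKM in young and 0.178 ± 0.0498 in old), and with no filter it was not called (limma adjusted p = 0.053). The call was also lost with RLE scaling (limma adjusted p = 0.062) and voom (voom adjusted p = 0.13), and was kept in 1 of 7 fits without 1 library (old replicate 3). The list summed to 1.62 to 3.08 FPKM in young and 5.10 to 7.26 in old, of which Fcer1g, which macrophages also express, made up 1.89 ± 0.649 and 4.50 ± 0.764 FPKM. Of its defining genes Ncr1 had 1 and 9 fragments, Klrb1c 12 and 6, and Klre1 8 and 5, while Klrk1 had 10 and 9. Nkg7 had 16 and 43 (1.39, limma adjusted p = 0.16). Prf1 stood at 0.137 ± 0.00655 and 0.323 ± 0.161 FPKM (0.77, limma adjusted p = 0.13), and neither gene overlapped between the ages. Gzma was at 0.118 ± 0.093 and 0.081 ± 0.060 FPKM. All 4 tested genes, Klrd1 included, had a limma unadjusted p under 0.05. Their median log2 difference was 1.05 (0.94 with RLE scaling), beside 0.15 for all genes. Eomes, Cxcr3, Ccl5, Cd247 and Lck are also expressed by natural killer cells.

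Of 16 macrophage and dendritic cell genes, which stand on 17 rows since Itgam has 2, 15 rows of 14 genes were tested and 2 rose, C1qb (1.06, limma adjusted p = 0.026) and Lyz2 (1.31, limma adjusted p = 0.048), while Lyz2 was not called with RLE scaling (limma adjusted p = 0.053) or with no filter (limma adjusted p = 0.063). C1qb kept its call in 3 of 8 fits without 1 library (young replicate 2, young replicate 4 or old replicate 4) and Lyz2 in 1 (young replicate 4). Of the 15 rows, 12 were higher in old and 0 lower at a limma unadjusted p under 0.05. Their median log2 difference was 0.88 (0.74 with RLE scaling), beside 0.15 for all genes. This list summed to 37.0 to 61.5 FPKM in young and 81.3 to 104.8 in old, and none of its genes was at 0 in all libraries. Of 8 B cell genes, 2 were tested and 0 called, with 1 at an unadjusted p under 0.05 in each direction, and the list summed to 2.21 to 2.94 FPKM in young and 2.26 to 3.13 in old. Cd79b, the B cell gene with the most fragments, had 226 in young and 132 in old, with every old library below every young one (-0.70, limma adjusted p = 0.067). Cd79a, its partner in the B cell receptor, had 35 and 97 (1.21, limma adjusted p = 0.074). Ms4a1 (CD20) had 4 and 27 fragments, Pax5 11 and 13, and Fcer2a 10 and 11.

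Of 5 genes of immature thymocytes, which would mark thymus tissue, Rag1 was tested, with 107 fragments in young and 155 in old (0.37, limma adjusted p = 0.31). Ptcra, the pre-T-cell receptor alpha chain, was at 0 in all 8 libraries, Rag2 had 2 and 4 fragments, Arpp21 79 and 20 (below the filter, with overlapping ages), and Dntt was above 0 in young alone. The list summed to 0.217 to 0.355 FPKM in young and 0.251 to 0.492 in old. Red blood cell genes varied within both ages: Hba-a1 (alpha globin) had 36, 40, 318 and 385 fragments in young and 58, 454, 515 and 301 in old. Of the 5 genes 0 were called, also at an unadjusted p under 0.05, and the list summed to 13.02 to 109.7 FPKM in young and 15.9 to 124.4 in old. Old replicate 1, low in Hba-a1, held 10 fragments of Cd3e and 8 of Cd3g against 6 to 9 and 7 to 9 in the other old libraries, while within young the CD3 chains held 0 and 2 fragments in replicates 1 and 2, low in Hba-a1, and 6 and 5 in replicates 3 and 4, high in it. The part of blood in these values was not tested.

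Of 10 pituitary hormone and lineage genes, 0 were higher and 2 fell in old, Gh (growth hormone; -1.36, limma adjusted p = 0.0076) and Lhb (-0.76, limma adjusted p = 0.044). Gh alone fell from 62320 ± 5846 to 24330 ± 3157 FPKM. FPKM is relative to a library total that includes these hormone RNAs, and with RLE scaling of every gene above 0 the log2 differences were 1.09 for Cd3g (limma adjusted p = 0.027) and 0.82 for Cd3e (limma adjusted p = 0.064).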

How the data were processed

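The authors sequenced polyA RNA of whole pituitary and deposited FPKM, 1 list of gene rows per library. By the study's methods and the submitters' processing notes STAR (version 2.6.1a) placed the reads on GRCm38, featureCounts assigned the fragments to genes, and the authors took FPKM from edgeR (version 3.28.1). Not given in the sources used here are the strand setting, the treatment of reads that fit several genes and the annotation release. The genes and lists were chosen with earlier results of these data known.

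Here limma (version 3.58.1, R 4.3.3) was fitted to log2(FPKM + 0.1) over genes whose mean reached 0.1 FPKM, with trend and robust off, and p-values were adjusted by Benjamini-Hochberg over all genes tested. A fold change on this scale understates that of low genes. The fit was tested on simulated data. Fragments were computed back with GENCODE M21 exon lengths. Within 0.01, between 86.7 and 87.7% of low values per library came out whole, in genes with 66.1 to 67.6% of the library total, and voom used these fragments. V segments were compared by an exact permutation test over libraries, two-sided. Python 3.11.15 with numpy 2.4.6, pandas 2.3.3, scipy 1.17.1 and matplotlib 3.10.9 was used. No 2 libraries of an age differed by less than sampling noise. Named were all 10 genes, the other list genes that passed the test, up to 4 genes per list with the smallest adjusted p, and the 3 V segments with the most fragments. Other genes given by value (Cd247, Zap70, Lat, Cd28, Eomes, the gamma delta constant genes and the defining markers) were picked for their role after their values had been seen. Some genes that the rule takes are counted but not reported here by name. The alternatives were pseudocounts of 1 and 0.01, filters, RLE and upper-quartile scaling, a mean-variance trend, voom, leaving out each library, and the replicate number taken as a block.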

Additional observations from a re-analysis of the deposited data

Results flagged for a closer look

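Cd3g in young replicate 3 stood apart, at 0.0449 FPKM (3 fragments) where the other 3 young libraries were at 0. It was the only one of 22 groups of 4 libraries, the 10 genes and the V segments at each age, whose highest or lowest library was so far from the others. Chance flags about 1 in 20 groups of continuous values. Here 3 libraries at 0 set the distance to its maximum whatever the count in the other, so that rate does not apply. The 3 fragments of young replicate 3 are no more than a count of 0 in each of the others allows. Without it the young libraries held 0 fragments of Cd3g and the limma adjusted p over every gene above 0 was 0.019, against 0.025 with it.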

How the results depend on the processing

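None of the 10 genes was called by limma with the filter on low values, and that count stayed at 0 with pseudocounts of 1 and 0.01, a minimum of 0.5 FPKM, RLE or upper-quartile scaling, a mean-variance trend, voom and each library left out. It became 1 (Cd3g) with no filter, also with RLE or upper-quartile scaling. With no filter and a library left out it ranged from 0 to 1. With voom over genes of at least 10 fragments it became 2 (Cd3e and Cd3g). Both passed that filter only through the old libraries. The fits that pair the removal of the filter with another choice, the voom fit at 10 fragments and the V segments without Trbv13-2 and Trbv12-2 were chosen after seeing the data. Only Cd4 reversed, to -0.10 without young replicate 2 and -0.019 without old replicate 3, with or without the filter, within a range of -0.10 to 0.376 over the libraries left out. The difference in V segments stayed positive in its 13 alternatives, at 0.0548 CPM for Trav alone (exact permutation p = 0.40) and 0.501 to 0.942 with a library left out (exact permutation p = 0.057 to 0.23).

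Whether replicate numbers pair the samples is not given in the sources used here. Deviations from the group means correlated at -0.037 to 0.037 between same-numbered libraries. Of the 4 young libraries, 1 correlated best with its own number. These correlations showed no pairing, but with 4 libraries per age they cannot decide whether the numbers pair the samples. With the replicate number as a block, 0 of the 10 genes were called with the filter and 0 without it (Cd3g limma adjusted p = 0.17, Cd3e 0.22), the V segment difference was 0.706 (exact permutation of signs, p = 0.125), and over all genes 4 were called higher and 0 lower, so that the 9 genes of the other lists called higher and the 2 called lower were not called. Without the block over all genes, the called genes numbered 436 higher and 111 lower, against 211 and 220 with RLE scaling, 227 and 143 with upper-quartile scaling, 689 and 138 with a pseudocount of 1, 806 and 149 with a minimum of 0.5 FPKM, 263 and 80 with no filter, 705 and 139 with a mean-variance trend, 1052 and 272 with voom, and 1110 and 294 with voom over genes of at least 10 fragments. Depth limits the CD3 chains, the CD8 chains and Trbc1, with 0 to 3 fragments per gene in each young library, so that a level below about 0.2 CPM could not be told from 0.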
